A study of Mus musculus with 21 samples.

Results

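Fatty acid uptake and oxidation genes were examined in the left ventricle of mice given tamoxifen or control injections. The set was a list of 34 genes, each measured by the probe set that was annotated to that gene alone and had the highest mean over all 21 arrays. Such a probe set was used for 31 of the 34, out of 19937 genes measured in all. Acsl1 and Ucp2 had no probe set of their own in the table used, and the Cpt1b probe set was shared with the predicted gene Gm44502, so these 3 genes are not analysed here. All 31 measured genes were bright enough to be tested, among 11384 genes whose log2 value reached 5 on at least 3 arrays.

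The study used mice aged 9 to 13 weeks that carried Tg(αMHC-MerCreMer) or were wild type. The transgene is under the cardiomyocyte promoter of α-myosin heavy chain. Its product is Cre recombinase between mutated hormone-binding domains of the oestrogen receptor, and tamoxifen lets this protein enter the nucleus. No other allele is named in the labels, so Cre had no stated target in these mice. MerCreMer mice received tamoxifen intraperitoneally at 40 mg/kg, or a control injection of unnamed content, on 1 day or on 4 consecutive days. Each of these 4 groups held 3 arrays, 1 from a male and 2 from females. Wild-type mice received 4 tamoxifen injections (3 arrays, 1 from a male) or 4 control injections (6 arrays, 3 from males). Tissue was taken 4 days after the last injection. The labels number replicates but do not state outright that each was a separate animal, so p-values measure the spread between these samples.

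The adult heart takes most of its energy from fatty acids. Lipoprotein lipase frees them from circulating triglyceride, the scavenger receptor CD36 and fatty acid transport proteins carry them into the cell, and the heart-type fatty acid binding protein moves them through the cytosol. After activation to acyl-CoA they enter mitochondria through the carnitine shuttle, where chain-length-specific acyl-CoA dehydrogenases, the trifunctional protein and thiolases shorten them, and electrons pass to the respiratory chain through the electron transfer flavoprotein. Many of these genes are targets of the nuclear receptor PPARα, which binds DNA with RXR at repeats called DR1, and of the oestrogen-related receptors with their coactivator PGC-1α.

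Promoter sequences of some of these genes are shown first. Hadha and Hadhb, the α and β subunits of the trifunctional protein, are transcribed away from each other from a common stretch of DNA. In the RefSeq table of build GRCm38.p6 their start sites lay 273 bases apart on opposite strands of chromosome 5. Below are the 250 bases before the Hadhb start, 5′ to 3′ on the plus strand, with capitals for the 228 bases that also lie within 250 bases before the Hadha start. The shared stretch was 57.0% G or C.
Hadhb (chr5:30155003-30155252, plus strand): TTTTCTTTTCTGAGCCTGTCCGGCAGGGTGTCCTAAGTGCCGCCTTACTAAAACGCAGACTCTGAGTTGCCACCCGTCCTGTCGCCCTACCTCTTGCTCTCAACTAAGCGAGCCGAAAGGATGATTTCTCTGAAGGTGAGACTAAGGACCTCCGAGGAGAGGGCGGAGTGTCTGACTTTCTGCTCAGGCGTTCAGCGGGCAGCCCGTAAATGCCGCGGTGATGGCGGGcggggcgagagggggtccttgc

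Windows from 250 bases before to 50 bases after a RefSeq start were matched for 29 of the 34 genes, and the unmatched genes were Lpl, Angptl4, Cpt1b, Acaa2 and Decr1. The DR1 repeat AGGTCANAGGTCA, searched on both strands with up to 2 mismatches, was found in windows of 4 of the 29 genes, namely Plin2, Cd36, Ucp3 and Etfa. Of all 32851 windows in the table, 3.86% held such a match. The oestrogen-related receptor element TCAAGGTCA, which shares its last 6 letters with the repeated unit of DR1, was searched exactly on both strands and was found in none of the 29, against 0.423% of all windows. A match describes these letters only and does not show binding. The upstream 250 bases are given for Ucp3, the gene with the largest difference on a single array, 5′ to 3′ on its own strand with the DR1 match in capitals.
Ucp3 (chr7:100472741-100472990, plus strand): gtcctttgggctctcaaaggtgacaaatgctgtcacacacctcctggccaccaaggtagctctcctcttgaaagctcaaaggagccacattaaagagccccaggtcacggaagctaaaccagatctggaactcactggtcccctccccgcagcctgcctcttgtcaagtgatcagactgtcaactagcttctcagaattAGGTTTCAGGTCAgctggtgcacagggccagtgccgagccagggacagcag
The match in Ucp3 began 51 bases before the start and had 2 mismatches. For Cd36 and Plin2 only the matching letters are given, since the table's starts lie inside the spans that RefSeq gives these genes, so that longer transcripts may begin upstream. They read TGGCCTCTGACTT in Cd36, 63 bases before such a start, and GGACCCCTGACCT in Plin2, 225 bases before one, both written on the gene's strand, with the repeat read on the opposite strand and 2 mismatches.

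The arrays of MerCreMer mice given 4 tamoxifen injections were less alike than those of any other group. They correlated with each other at 0.9182 to 0.9742, and the lowest correlation within any other group was 0.9824. Replicate 3 of that group stood farthest from its own group's other arrays for the fatty acid genes, so results that rest on it are given with and without it. Cardiomyocyte markers were bright on all arrays, with all 14 listed markers measured. Their summed linear level was 53690 to 69742 units in the 4 tamoxifen MerCreMer group and 70272 to 70835 in its controls, and 3 of the 14 were lower by the test. Of the adipocyte markers, Adipoq, Retn, Lep, Plin1, Cidec and Ucp1 did not reach a log2 value of 5 on 3 arrays, and the summed level of the 9 measured was 332 to 372 units in the group against 314 to 378 in its controls. Of the 3 adipocyte markers tested, 1 was lower by the test, and 0 were without replicate 3. Their changes with all arrays ran from -1.22 to 0.21. Mean values of 2 probe sets without a gene name also divided the MerCreMer arrays of every group into a higher and a lower side, with all wild-type arrays on the lower side, and the labels name nothing that matches this division.

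The first comparison asked what 4 tamoxifen injections did to these genes where Cre could act, against 4 control injections in mice of the same genotype. After tamoxifen 13 of the 31 fatty acid genes fell, 1 rose (Plin2) and 17 did not pass the test. A gene was taken as changed at an adjusted p under 0.05 in limma, with Benjamini-Hochberg adjustment over all 11384 genes. Over all tested genes, 9.41% were lower and 13.9% were higher by the same rule. That was 1071 lower and 1583 higher genes, and 1433 and 1310 after each array was centred on its median, where 21 of the 31 were lower. The median change of the 31 genes was -0.51 on the log2 scale, with 29 below 0, and the median of all tested genes was 0.01. The genes that fell came from several steps: Lpl, Cd36 and Slc27a1 in uptake, Acot1 and Plin5 in acyl-CoA and droplet handling, Cpt2 and Mlycd in the carnitine shuttle and its control, Acadvl, Acadl, Hadha and Hadhb in the β-oxidation spiral, Ech1 among the auxiliary enzymes, and Acaa1a in the peroxisome. In 10 of the 31 genes all 3 tamoxifen arrays lay below all 3 control arrays, against 11.3% of all tested genes, and in Plin2 alone among the 31 they lay above, against 16.6%.

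The size of the fall differed between the 3 tamoxifen arrays. The median difference of the 31 genes from the control mean was 0.04 on replicate 1, -0.32 on replicate 2 and -1.22 on replicate 3. On those arrays the median of all tested genes differed from the control mean by 0.06, 0.01 and -0.01. On replicate 3, 28 of the 31 genes lay below all 18 arrays of the other 5 groups, against 29.1% of tested genes. The corresponding counts were 22 of 31 on replicate 2, against 11.4%, and 4 of 31 on replicate 1, against 15%. The low values were thus shared by replicates 2 and 3 for most of the 31 genes, were deepest on replicate 3, and were present on replicate 1 for few. Replicate 1 was from a male and replicates 2 and 3 were from females, so sex and other differences between these samples cannot be told apart here.

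**Figure D1:**
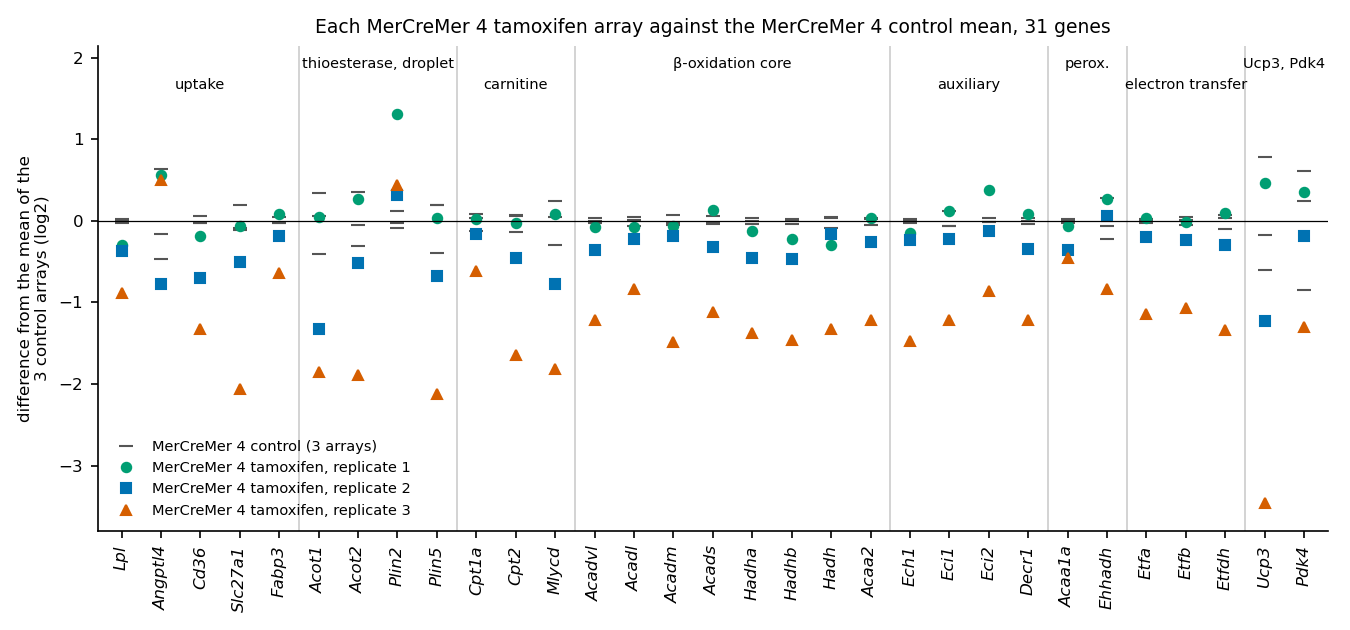
Each of the 3 MerCreMer 4 tamoxifen arrays (symbols) and the 3 MerCreMer 4 control arrays (dashes) as the log2 difference from the mean of the 3 controls, for 31 genes grouped by role. Replicate 3 lies below all 3 controls for 29 of 31 genes, replicate 2 for 28 and replicate 1 for 10.

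Because 1 array weighed so much, the comparison was repeated without replicate 3, and then 4 genes were lower (Lpl, Cd36, Hadha and Hadhb) and 1 was higher (Plin2). All 5 were among the 14 changed with all arrays, and over all tested genes 5.77% were lower and 10.7% higher in that fit. The median change of the 31 genes was then -0.16. Without replicate 1 of the tamoxifen group 26 genes were lower, and without replicate 2, 21 were. Of all 11384 tested genes, 1721 and 1602 were lower in these fits. Leaving out a control array gave 6 lower genes without control replicate 1, 3 without replicate 2 and 6 without replicate 3. There 758, 654 and 683 of all 11384 tested genes were lower. Lpl, Cd36 and Hadhb were lower and Plin2 higher in each of these 6 fits, and Hadha was lower in 5 of them, missing only without control replicate 2. With a spread estimated for each group, 4 genes were lower (Lpl, Cd36, Hadha and Hadhb) and none was higher, and with only the 6 arrays compared 0 of the 31 passed the threshold, as did 18 of all 11384 genes. Among the 8 MerCreMer arrays on the higher side of the unnamed probe sets, 1 gene (Hadh) was lower. The changes in that fit were -1.17 for Hadhb, -1.07 for Cd36 and -0.71 for Lpl (limma adjusted p of 0.0628, 0.0626 and 0.0645), on 3 residual degrees of freedom. All control arrays on that side were from females and the only males were tamoxifen arrays. The sex term therefore enters these sizes, which cannot be set against those from all arrays. With the side as a term in the fit of all arrays the same 14 genes were changed. The lower side held 1 array of each MerCreMer group and gave no test.

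**Figure D2:**
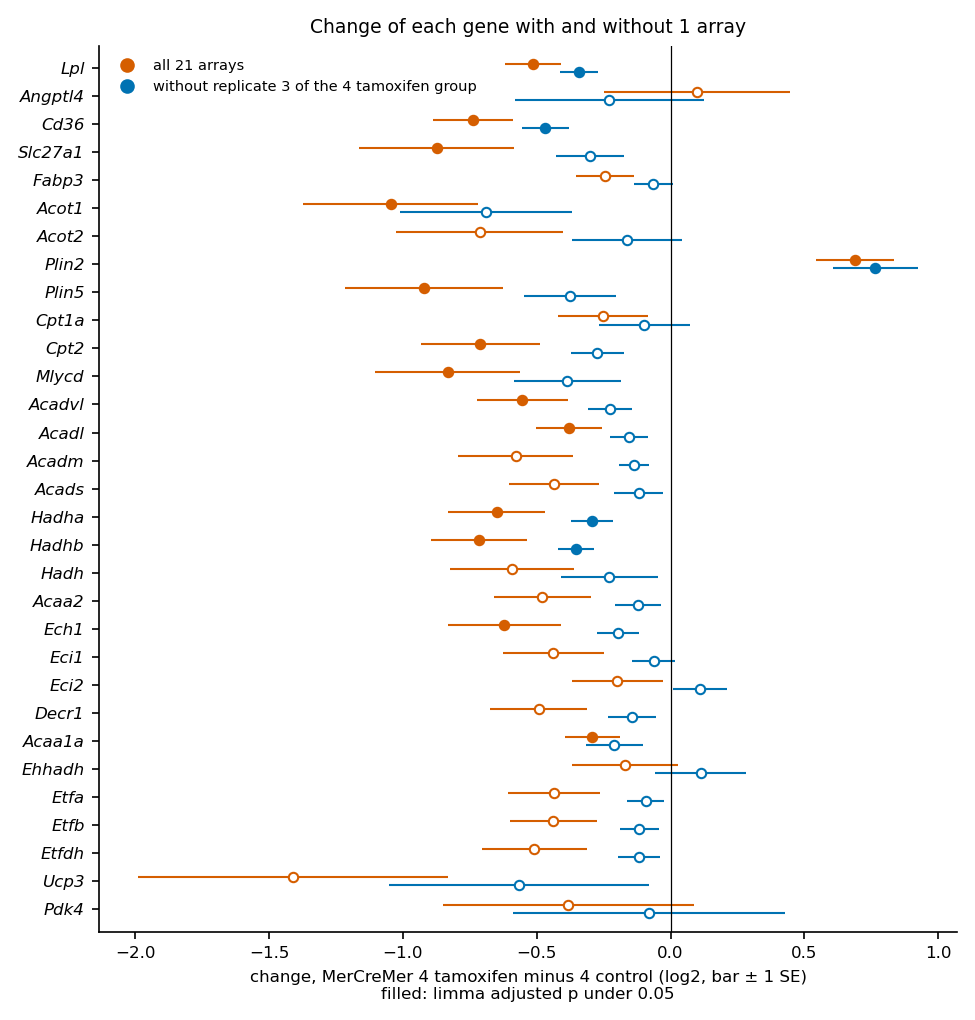
Log2 change in MerCreMer mice, 4 tamoxifen minus 4 control injections, for each of 31 genes with 1 standard error, from all 21 arrays (orange) and without replicate 3 of the tamoxifen group (blue), filled where the limma adjusted p was under 0.05. Filled points number 14 with all arrays and 5 without replicate 3, and Lpl, Cd36, Hadha, Hadhb and Plin2 are filled in both.

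Of the 5 uptake and carriage genes, 3 fell. Lpl, the lipase that frees fatty acids from lipoproteins at the capillary wall, read 11.70, 11.62 and 11.12 log2 units on the 3 tamoxifen arrays and 12.00, 12.01 and 11.96 on the controls. On the arrays of the other 4 groups it read 11.93 to 12.25. All 3 tamoxifen arrays were thus below every other array of the study. The mean went from 11.99 ± 0.0263 to 11.48 ± 0.316 (SD, n = 3 each), a change of -0.51 with SE 0.104 (limma adjusted p = 0.00208). Cd36, the fatty acid translocase of the plasma membrane, read 11.34, 10.83 and 10.20 after tamoxifen against 11.50, 11.59 and 11.50 in the controls. Its 3 tamoxifen arrays also lay below the 11.43 to 11.68 of all other arrays. The change was -0.74 with SE 0.150 (limma adjusted p = 0.00214), or a 1.67-fold lower level. Without replicate 3 the changes were -0.34 for Lpl and -0.47 for Cd36, with limma adjusted p of 0.00277 and 0.00138.

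Slc27a1, the fatty acid transport protein FATP1, read 9.61, 9.17 and 7.61 against 9.58, 9.87 and 9.56. Its groups overlapped, since replicate 1 was within the control range, and the change of -0.87 (limma adjusted p = 0.0363) became -0.30 without replicate 3 (0.121). Fabp3, the heart-type fatty acid binding protein, read 12.15, 11.88 and 11.42 against 12.04, 12.11 and 12.04, a change of -0.24 (limma adjusted p = 0.107). Angptl4, a secreted inhibitor of lipoprotein lipase, read 6.35, 5.02 and 6.29 against 6.42, 5.63 and 5.32. Its groups overlapped. The change of 0.10 (SE 0.346, limma adjusted p = 0.867) was not distinguishable from 0 and was -0.23 without replicate 3.

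**Figure D3:**
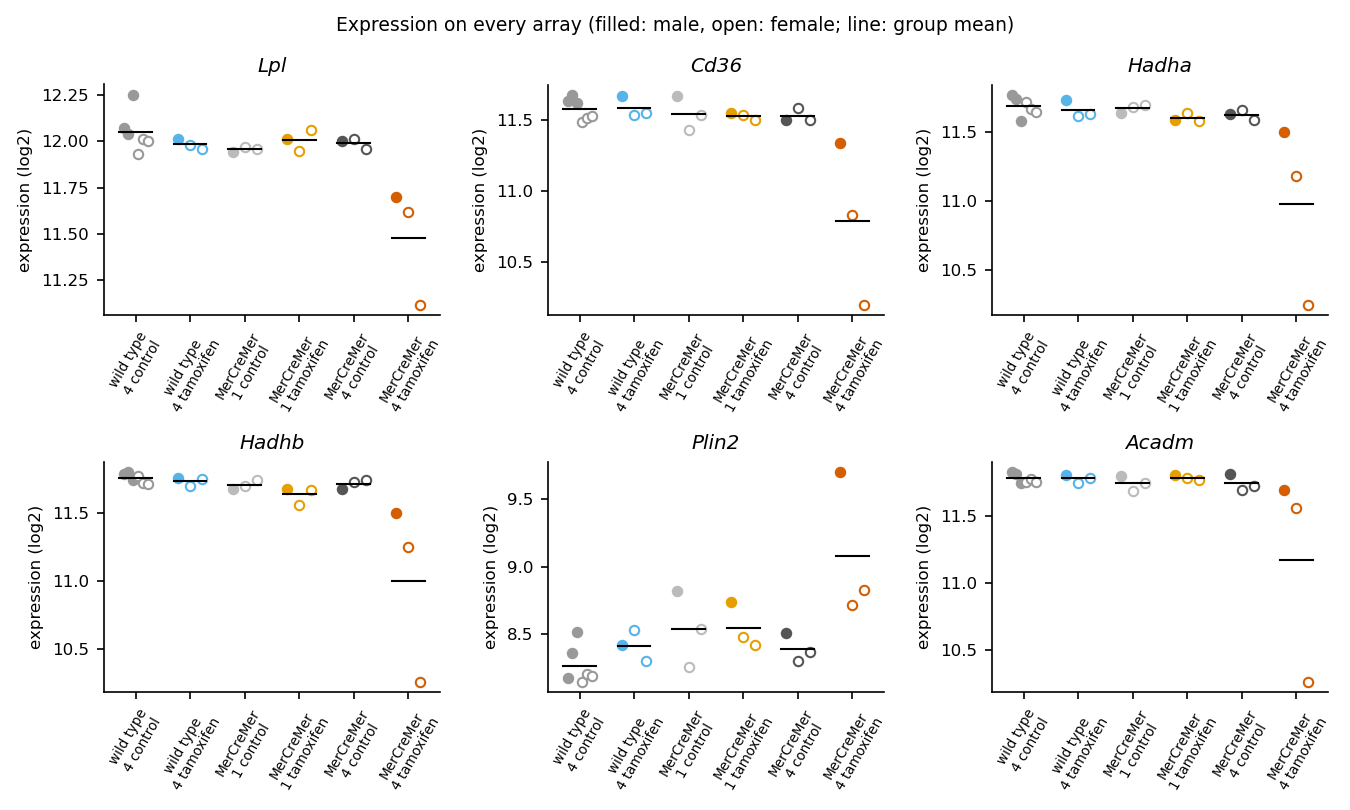
Log2 expression of Lpl, Cd36, Hadha, Hadhb, Plin2 and Acadm on every array by group (filled male, open female, line group mean). In Lpl, Cd36, Hadha and Hadhb the 3 MerCreMer 4 tamoxifen arrays lie below all other 18 arrays, while the Acadm replicate 1 value of 11.70 lies within the range of the other groups.

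Among the 4 measured genes of acyl-CoA thioesterases and lipid droplets, Plin2 rose while Acot1 and Plin5 fell. Plin2, the droplet coat protein perilipin 2, read 9.70, 8.72 and 8.83 against 8.51, 8.30 and 8.37 in the controls, so that the groups did not overlap and replicate 1 was the highest array. The 18 arrays of the other groups ranged from 8.15 to 8.82, and replicate 2 lay within that range. The change was 0.69 with SE 0.146 (limma adjusted p = 0.00299), and 0.77 without replicate 3 (0.00278). Plin5, the perilipin of oxidative tissue that ties droplets to mitochondria, read 8.20, 7.48 and 6.04 against 8.35, 8.36 and 7.77. Replicate 1 lay within the control range, and the change of -0.92 (limma adjusted p = 0.0321) was -0.38 without replicate 3 (0.153). Acot1, a cytosolic thioesterase that releases free fatty acid from acyl-CoA, read 6.66, 5.28 and 4.76 against 6.67, 6.95 and 6.21. Its change was -1.05 (limma adjusted p = 0.0287), and -0.69 without replicate 3 (0.157). Acot2, its mitochondrial neighbour on chromosome 12, read 10.10, 9.31 and 7.94 against 9.78, 10.19 and 9.52, a change of -0.71 (limma adjusted p = 0.105). Acot1 and Acot2 are close relatives in sequence, and whether each probe set reads 1 of them alone was not tested.

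In the carnitine shuttle and its control, 2 of 3 measured genes fell with all arrays and none without replicate 3. Cpt2, the inner membrane palmitoyltransferase, read 9.86, 9.42 and 8.25 against 9.95, 9.96 and 9.75. Mlycd, which breaks down malonyl-CoA, the inhibitor of the outer membrane transferase, read 7.92, 7.07 and 6.01 against 7.88, 8.08 and 7.54. Both genes were at control level on replicate 1 and lowest on replicate 3. The changes were -0.71 for Cpt2 and -0.83 for Mlycd (limma adjusted p = 0.0283 and 0.0346), and -0.27 and -0.39 without replicate 3 (0.0677 and 0.208). Cpt1a, the outer membrane transferase form that is most abundant in liver, read 8.24, 8.05 and 7.60 against 8.30, 8.25 and 8.08, a change of -0.25 that did not pass the test (limma adjusted p = 0.286).

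Of the 8 core enzymes of mitochondrial β-oxidation, 4 fell and in 6 the groups did not overlap. Hadhb, the thiolase subunit of the trifunctional protein, read 11.50, 11.25 and 10.26 after tamoxifen and 11.68, 11.73 and 11.74 after control injections. Hadha, the subunit with the hydratase and long-chain dehydrogenase activities, read 11.50, 11.18 and 10.25 against 11.63, 11.66 and 11.59. The order of the 3 tamoxifen arrays was the same for both subunits, as for most of the 31 genes. For both subunits every tamoxifen array was below all 18 other arrays. Their start sites flank the shared stretch printed above, and its part in the fall of these genes was not tested. Hadhb changed by -0.72 (SE 0.180, limma adjusted p = 0.00922) and Hadha by -0.65 (SE 0.181, limma adjusted p = 0.0161). Without replicate 3 the changes were -0.35 and -0.29 (limma adjusted p = 0.00149 and 0.0164). The spread of these genes in the tamoxifen group, with an SD of 0.654 for Hadhb, was far above the 0.0315 of its controls, and the shared SE is narrower than that group's own spread.

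The 4 straight-chain acyl-CoA dehydrogenases, which start the spiral on very long to short chains, followed the same order of arrays at smaller size on replicates 1 and 2. Acadvl read 10.97, 10.68 and 9.83 against 11.05, 11.08 and 11.02, a change of -0.55 (limma adjusted p = 0.0257). Acadl read 11.14, 10.99 and 10.37 against 11.15, 11.22 and 11.25, a change of -0.38 (limma adjusted p = 0.0335). Acadm, the medium-chain enzyme, read 11.70, 11.56 and 10.26 against 11.82, 11.70 and 11.73. Its replicate 3 was 1.49 log2 units under the control mean and the other 2 arrays 0.06 and 0.19 under it, and the change of -0.58 missed the threshold (limma adjusted p = 0.0565). Acads, the short-chain enzyme, changed by -0.43 (0.0683), and on replicate 1 was 0.13 above the control mean. Hadh, the short-chain hydroxyacyl-CoA dehydrogenase, read 11.08, 11.21 and 10.04 against 11.41, 11.28 and 11.42, and Acaa2, the mitochondrial thiolase, read 11.49, 11.19 and 10.24 against 11.48, 11.47 and 11.40. Neither passed the test (limma adjusted p = 0.0717 and 0.0657). Without replicate 3 none of these 6 genes was called.

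Ech1, which isomerises double bonds, was the 1 of 4 auxiliary enzymes for unsaturated acyl-CoA that fell, from 11.94 to 11.32 (change -0.62, limma adjusted p = 0.0399), with array values of 11.79, 11.70 and 10.47. Without replicate 3 the change was -0.20 (0.103). Eci1, Eci2 and Decr1, which also prepare unsaturated chains, changed by -0.44, -0.20 and -0.49 without passing the test. Eci2 was 0.38 above the control mean on replicate 1 and 0.86 below it on replicate 3. In the peroxisome, the thiolase Acaa1a read 7.11, 6.81 and 6.71 against 7.14, 7.19 and 7.18 (change -0.29, limma adjusted p = 0.0476), and without replicate 3 the change was -0.21 (0.195). The bifunctional enzyme Ehhadh changed by -0.17 (0.572). The 3 genes of electron transfer from the dehydrogenases to ubiquinone, Etfa, Etfb and Etfdh, changed by -0.44, -0.44 and -0.51, none past the threshold (limma adjusted p of 0.0730, 0.0600 and 0.0673). On replicate 3 they were 1.14, 1.07 and 1.34 log2 units below the control mean, and on replicate 1 within 0.10 of it.

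Ucp3, a mitochondrial carrier of muscle, showed the largest difference on any single array among the 31. It read 8.07, 6.38 and 4.15 on the tamoxifen arrays and 8.39, 7.0 and 7.43 on the controls, so that replicate 3 was 3.46 log2 units below the control mean while replicate 1 was above it. The change of -1.41 had an SE of 0.579 and did not pass the test (limma adjusted p = 0.0846). Pdk4, the kinase that switches off pyruvate dehydrogenase when fatty acids are burned, read 10.66, 10.13 and 9.01 against 10.56, 10.93 and 9.47, a change of -0.38 with SE 0.468 (limma adjusted p = 0.588). The SD of Pdk4 within the other 5 groups, 0.850, was above its SD of 0.842 in the tamoxifen group, while Ucp3 had SDs of 0.830 and 1.97.

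Macrophage markers moved in the other direction on the same arrays. All 15 tested markers of that list rose, with a median change of 1.02, and without replicate 3, 12 of the 15 rose. Their median difference from the control mean was 0.93, 0.31 and 1.80 on replicates 1, 2 and 3. Their summed linear level was 2170 to 5721 units in the tamoxifen group and 1679 to 1703 in its controls. For cardiomyocyte markers the same differences were -0.05, 0.02 and -0.26, for endothelial markers 0.09, -0.31 and -0.61 with 3 of 10 lower, and for fibroblast markers -0.02, 0.13 and 0.22 with 0 of 9 changed by limma (4 at an unadjusted p under 0.05). The summed fibroblast level was 4404 to 10714 units against 3932 to 4403, and Postn, the matrix protein periostin, changed by 1.65 (limma adjusted p = 0.0625). Of 3 atrial markers 1 fell, the atrial light chain Myl7 (-3.77, limma adjusted p = 0.0211), with a summed level of 1602 to 6350 units against 2277 to 2913. The other 2 atrial markers changed by -2.11 and 1.02 without passing the test, and all 3 had an unadjusted limma p under 0.05. Of 2 tested skeletal muscle markers 1 rose, the troponin Tnnt3 (1.84, limma adjusted p = 6.85e-05). Of the 8 measured, Myh4, Myh1, Myh2, Mylpf, Actn3 and Pvalb did not reach a log2 value of 5 on 3 arrays. The summed level of all 8 was 217 to 305 units against 172 to 186. On replicate 1 macrophage markers were higher than on replicate 2, and the fatty acid genes were near control level. These 2 arrays also differ in sex. The part of these other cell types in the result was not tested. In whole ventricle, fewer cells of a type and less RNA per cell cannot be told apart.

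**Figure D4:**
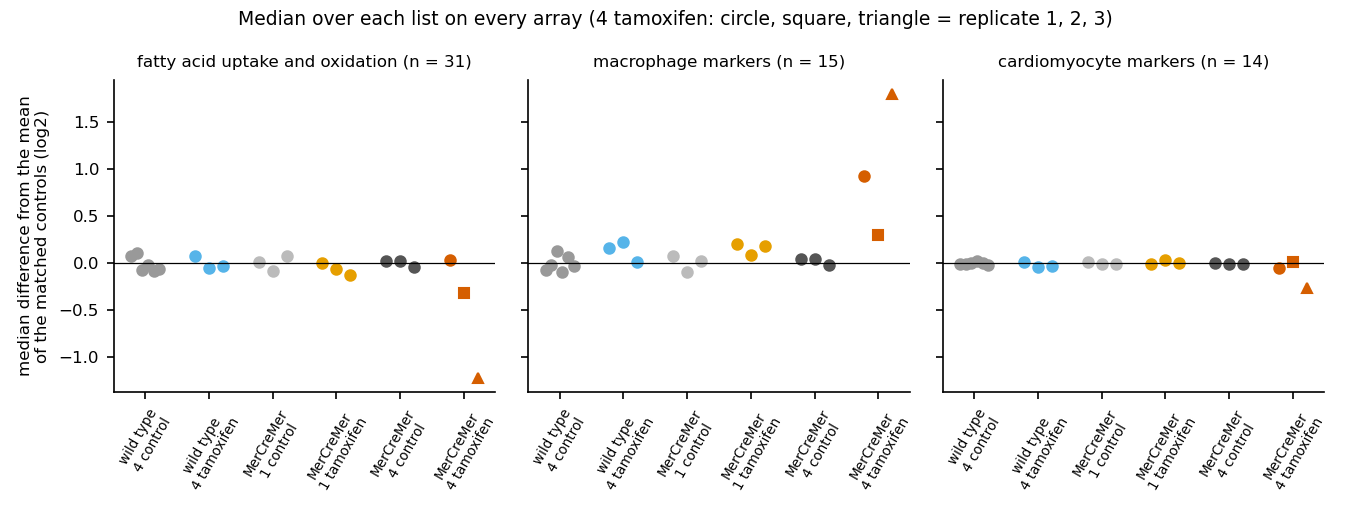
Median log2 difference from the mean of the matched control group on every array, for the 31 fatty acid genes, 15 macrophage markers and 14 cardiomyocyte markers. In the MerCreMer 4 tamoxifen group the fatty acid genes stand at 0.04, -0.32 and -1.22, the macrophage markers at 0.93, 0.31 and 1.80, and the cardiomyocyte markers at -0.05, 0.02 and -0.26.

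Other genes of the same metabolism, taken from lists of genes outside the 31, were counted in the same comparison. Of 23 other fatty acid oxidation and carnitine genes, 8 fell and 2 rose, with a median change of -0.31, and without replicate 3, 1 fell and 2 rose. The median of that list on the 3 tamoxifen arrays was 0.04, -0.13 and -0.86, the same order as for the 31 genes. Acsl4, an acyl-CoA synthetase that prefers arachidonate, rose by 0.61 (limma adjusted p = 0.00116), and Hsd17b10 and Hsd17b4, hydroxyacyl-CoA dehydrogenases of mitochondrion and peroxisome, fell by 0.44 and 0.31 (0.0153 and 0.0154). Abcd3, a peroxisomal transporter, fell by 0.48 (0.0237). Of 20 other lipid uptake, storage and lipolysis genes, 4 fell and 0 rose by limma (8 in either direction at an unadjusted p under 0.05), and without replicate 3, 2 fell and the median went from -0.22 to -0.06. Vldlr, the receptor for triglyceride-rich lipoproteins, read 9.21, 9.36 and 8.43 against 10.26, 10.21 and 10.07, with every tamoxifen array lower. Its change of -1.18 (SE 0.142, limma adjusted p = 2.33e-05) was -0.91 without replicate 3. Pnpla2, the droplet lipase ATGL, fell by 0.59, Gpam, which begins triglyceride synthesis, by 0.89, and Fitm2, a droplet protein, by 0.58 (limma adjusted p of 0.0123, 0.0145 and 0.0373).

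Regulators of fatty acid oxidation were lower in part, with 9 of 24 lower and 3 higher, and 4 lower and 3 higher without replicate 3. Ppargc1a, the gene of the coactivator PGC-1α, read 6.69, 7.58 and 6.14 against 8.21, 8.23 and 7.99, so that replicate 1 was lower than replicate 2. It changed by -1.34 (SE 0.223, limma adjusted p = 0.000416), and by -0.99 without replicate 3. Esrrg, the oestrogen-related receptor γ, read 7.10, 6.95 and 6.52 against 7.80, 7.92 and 7.85, a change of -1.0 (limma adjusted p = 8.92e-06). Klf15 fell by 1.07 (0.000484), and Prkag2, an AMP-activated kinase subunit, rose by 0.59 (0.000477). On replicate 1, where the 31 fatty acid genes were near their control level, Ppargc1a, Esrrg and Klf15 were below all 3 control arrays. The median of this list on the 3 arrays was -0.08, -0.10 and -0.46.

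Pyruvate dehydrogenase and its control held 4 lower and 1 higher genes of 11, and 1 of each without replicate 3. Pdk3, a pyruvate dehydrogenase kinase, read 5.62, 5.85 and 7.08 against 4.62, 5.0 and 5.10 and rose by 1.28 (limma adjusted p = 0.000547), whereas Pdp1, a phosphatase that reverses the kinases, fell by 0.80 (0.000243). Mpc1, a subunit of the mitochondrial pyruvate carrier, fell by 0.46 (0.0215), and Pdp2, another phosphatase, by 0.70 (0.0364). Of 16 glucose uptake and glycolysis genes, 4 fell and 4 rose, with a median of 0.01, and without replicate 3, 2 fell and 3 rose. Hk2, a hexokinase, fell by 0.49 and Pfkl, a phosphofructokinase, by 0.24, and the isoform Pfkp and Pgam1 rose by 0.58 and 0.76 (limma adjusted p of 0.00552, 0.0180, 0.0134 and 0.0197). Of 4 ketone body genes, Oxct1, the enzyme that lets tissue use ketone bodies, fell by 0.45 (0.0401), and without replicate 3 it changed by -0.17 (0.202).

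The next comparisons asked whether the tamoxifen effect in MerCreMer mice differed from that in wild-type mice and from that of 1 injection. The difference between genotypes passed the test for 2 of the 31 genes, Cd36 and Lpl, both more strongly lower in MerCreMer mice. Over all tested genes 3.53% were lower and 4.45% higher by this test, and 2 lower genes among 31 is close to that share. For Cd36 the MerCreMer effect exceeded the wild-type one by -0.78 (SE 0.198, limma adjusted p = 0.0228), and for Lpl by -0.46 (SE 0.138, limma adjusted p = 0.0468). In 30 of the 31 genes the difference was below 0, with a median of -0.57. Leaving out 1 array at a time kept Cd36 past the threshold in 17 of 21 fits and Lpl in 3 of 21, with limma adjusted p up to 0.0596 and 0.0988 and every difference below 0. Without tamoxifen replicate 3 the genes past it were Cd36 (-0.50, 0.0107) and Hadhb (-0.34, 0.0199), with 3.31% of all tested genes lower and 4.8% higher. Without replicate 1 of that group 23 genes were lower, and without replicate 2, 10 were lower and Plin2 was higher. Of all 11384 tested genes 924 were lower in each of these fits, and 790 and 1318 were higher. None of the 31 passed without control replicate 2 or 3 of the MerCreMer mice or without tamoxifen replicate 2 or 3 of the wild-type mice. With only the arrays compared, and with a block for replicate number, neither gene passed (limma adjusted p of 0.0627 and 0.358 for Cd36), and with a spread per group Cd36 and Hadhb passed and Lpl did not (0.0956). The wild-type and MerCreMer comparisons shared no arrays, but the fit shared 1 estimate of the spread.

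Between 4 and 1 injections, Lpl alone of the 31 differed, with an effect more negative by 0.56 after 4 injections (-0.56, SE 0.147, limma adjusted p = 0.0308). Over all tested genes 3% were lower and 2.78% higher by this test, and 1 lower gene among 31 is close to that share. Cd36 and Plin2 came next, with differences of -0.72 and 0.68 and limma adjusted p of 0.0532 and 0.0590. Both passed, with Lpl, without tamoxifen replicate 3 (limma adjusted p of 0.0295 and 0.0394), in a fit with 3.26% of all tested genes lower and 3.55% higher. Leaving out single arrays, Lpl passed in 14 of 21 fits, with limma adjusted p up to 0.0876. It did not pass without replicate 1 or 3 of the 1 control group, replicate 2 or 3 of the 1 tamoxifen group or any of the 3 replicates of the 4 control group. Without replicate 1 of the 4 tamoxifen group 9 genes were lower, as were 803 of all 11384 tested genes. Lpl also did not pass in female arrays, with only the arrays compared, with no filter or with the replicate block (limma adjusted p of 0.127, 0.203, 0.0579 and 0.116), and with a spread per group Cd36 passed in its place (0.0548 for Lpl). Outside the 31, Vldlr, Esrrg, Ppargc1a, Klf15, Pdp1 and Pdk3 passed both tests of a difference (limma adjusted p up to 0.0134 between genotypes and 0.0356 between doses). These genes had been named for their small adjusted p in the first comparison. That comparison is a part of both differences, so their passing adds no separate support.

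After 1 tamoxifen injection none of the 31 genes changed in MerCreMer mice by limma, and none had an unadjusted p under 0.05. Over all tested genes, 0% were lower and 0.00878% higher. The median change was -0.04, and single changes ran from -0.70 for Pdk4 to 0.15 for Acads. Lpl read 12.01, 11.95 and 12.06 after tamoxifen against 11.94, 11.97 and 11.96, and Cd36 read 11.55, 11.54 and 11.50 against 11.67, 11.43 and 11.54. Hadhb read 11.68, 11.56 and 11.67 against 11.68, 11.70 and 11.74, and Plin2 read 8.74, 8.48 and 8.42 against 8.82, 8.26 and 8.54. The groups overlapped for Lpl, Cd36 and Plin2, while for Hadhb the highest tamoxifen array lay just under the lowest control, and its change was -0.07. Such a separation downwards was seen in 3 of the 31 genes (Acot1, Hadhb and Decr1), against 3.51% of tested genes, and upwards in none, against 6.88%. The Acot1 change was -0.61 (SE 0.327, limma adjusted p = 1.00). Median changes without any single array ranged from -0.13 to 0.01.

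In wild-type mice, 4 tamoxifen injections changed none of the 31 genes by limma, and none had an unadjusted p under 0.05, as 0% of all tested genes were called in either direction. The median change was 0.03, with a range from -0.08 for Slc27a1 to 0.38 for Ucp3, and in no gene did the groups separate, against 1.69% of tested genes that separated downwards and 1.73% upwards. Lpl read 12.01, 11.98 and 11.96 after tamoxifen against a lowest, median and highest control value of 11.93, 12.03 and 12.25. Cd36 read 11.67, 11.54 and 11.55 against 11.49, 11.57 and 11.68. Hadhb read 11.76, 11.70 and 11.75 against 11.71, 11.75 and 11.80. For all 3 genes the tamoxifen arrays overlapped the controls.

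The transgene itself was compared at 4 control injections. None of the 31 genes passed the test between MerCreMer and wild-type controls, while 3 had an unadjusted p under 0.05 (Angptl4, Acads and Acot1), as had 1694 of all 11384. Over all tested genes 0.132% were lower and 0.545% higher in MerCreMer mice. Acads was the 1 gene whose groups did not overlap, against 8.49% of tested genes that were higher and 4.05% that were lower in this way. It read 10.09, 10.01 and 9.99 in MerCreMer controls and from 9.61 to 9.89, with a median of 9.77, in the 6 wild-type controls. Its difference was 0.32 with SE 0.146 (limma adjusted p = 0.315) and was 0.31 with SE 0.0704 (0.0241) without replicate 3 of the 4 tamoxifen group, an array in neither of the groups compared. In that fit 0.922% of tested genes were lower and 3.22% higher. With the MerCreMer controls of both injection days against the wild-type controls, none of the 31 passed either, against 0.492% of tested genes lower and 1.65% higher. An unadjusted p under 0.05 was then reached by 10 of the 31, all higher in MerCreMer mice, and by 2192 of all 11384. Angptl4 had the smallest p, with a difference of 0.94 (SE 0.247, limma adjusted p = 0.0542), and Pdk4 differed by 1.0 (0.114). The MerCreMer controls of 1 and of 4 injections did not differ in any of the 31 genes by limma, with 0 at an unadjusted p under 0.05 and 0% of all tested genes called. In 2 of the 31 the 4 injection controls lay below the 1 injection controls, against 4.12% of tested genes, and in none above, against 5.67%.

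Within the 5 groups other than MerCreMer 4 tamoxifen, the 31 genes ranged from steady to variable. The pooled SD within groups was 0.0397 for Hadhb and 0.0418 for Acadm, lower than for all but 0.6% and 0.8% of tested genes. It was 0.850 for Pdk4, 0.830 for Ucp3 and 0.581 for Angptl4, higher than for 99.9%, 99.9% and 99.7% of tested genes. Pdk4 ranged from 8.92 to 11.50 and Ucp3 from 6.37 to 8.95 over these 18 arrays. Pdk4, Ucp3 and Angptl4 are known targets of PPARα, but so are many of the 31 genes, and the cause of the spread was not tested.

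Several of the 31 genes, steady and variable ones, varied with Pdk4 from array to array. Over the 18 arrays, deviations of Etfdh from its group means followed those of Pdk4 most closely among all 11383 other tested genes (r = 0.94, rho = 0.91, permutation p = 0.00021 and 0.00036 from 100000 shuffles within groups). Of the 30 relations of Pdk4 with the other fatty acid genes, 18 passed a Benjamini-Hochberg adjusted p of 0.05 over the 30. An r of at least 0.5 was reached by 19 of the 30 and by 5.46% of all tested genes, and an r of at least 0.8 by 7 of the 30 and by 35 of the 11383. Among them were Cpt2 and Acot2 (r = 0.89 each), Mlycd (0.86), and Ucp3, Angptl4 and Slc27a1 (0.83 each), with permutation p adjusted over the 30 from 0.00138 to 0.00429. Without the 2 arrays farthest from the Pdk4 median, r was 0.93 for Etfdh, 0.76 for Ucp3 and 0.86 for Angptl4. Within the 11 female arrays r was 0.91, 0.59 and 0.80, and within the 7 male arrays 0.89, 0.88 and 0.52. Among the 18 genes that passed, r went down to 0.26 in females (Acadm) and 0.19 in males (Ehhadh). The deviations were from group means over both sexes, so a sex difference is not removed from them and the values by sex are not independent. Lpl (0.12), Etfb (0.01), Acaa1a (-0.05) and Hadhb (0.38) showed no such relation past the threshold. The nearest genes outside the 31 were Gpam, Pex11a and Me1, each with r = 0.91. Arrays of 1 group share their treatment and the whole set shares 1 normalisation, and the choice of Pdk4 as the reference was made after its spread was seen.

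**Figure D5:**
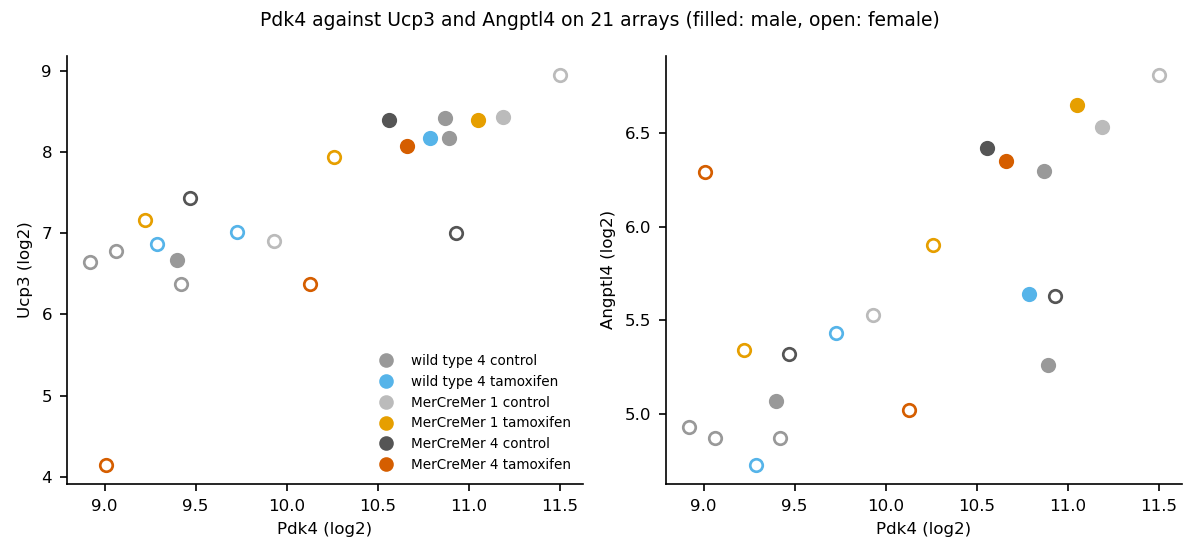
Log2 expression of Pdk4 (horizontal) against Ucp3 and Angptl4 (vertical) on 21 arrays, coloured by group, filled for males and open for females. 7 of the 8 male arrays have Pdk4 at or above 10.56 and Ucp3 at or above 8.07, and the MerCreMer 4 tamoxifen array with Ucp3 at 4.15 lies apart at the lower left of the first panel. Female arrays reach such levels too. A female MerCreMer 4 control has Pdk4 at 10.93 and Ucp3 at 7.0. In the MerCreMer 1 controls, with 1 male, the median and highest values are 11.19 and 11.50 for Pdk4 and 8.43 and 8.95 for Ucp3.

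Male arrays read higher than female arrays for these genes, though no gene passed the adjusted threshold. With sex as a term beside the 6 groups, all 31 genes had a positive male minus female difference, with a median of 0.19, against 52.7% of all tested genes with a positive one. None passed the adjusted threshold in limma, while 11 were higher in males at an unadjusted p under 0.05, against 5.94% of tested genes. Over all tested genes 0.132% were called lower and 0.158% higher in males. The MerCreMer 4 tamoxifen group bears on this, since its male array was replicate 1. Without the 3 arrays of that group, 27 of 31 were positive (49.5% of all genes), the median was 0.08 and 12 had an unadjusted p under 0.05 (5.43% of all genes), with 0 called. Ucp3 was then higher in males by 1.02 (SE 0.263, limma adjusted p = 0.123), Pdk4 by 1.00 (SE 0.278, 0.154) and Angptl4 by 0.70 (SE 0.188, 0.145). In the 6 wild-type controls Ucp3 read 8.17, 8.42 and 6.67 in males and 6.65, 6.37 and 6.78 in females, so that 2 males were high and the other one was at the female level. Pdk4 split the same way, at 10.89, 10.87 and 9.40 in males and 8.92, 9.42 and 9.06 in females. In the MerCreMer 4 controls, by contrast, Pdk4 read 10.56 in the male and 10.93 and 9.47 in the females.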

How the data were processed

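Expression was measured on 21 arrays of mouse left ventricle. The deposited values are log2 expression, made with RMA per the submitters' processing notes, and its version is not given in the sources used here. As generally defined, RMA includes quantile normalisation, which makes the distributions of probe intensities alike on all arrays, so changes are relative to the other genes. Array medians were 4.57 to 4.72. Of 34760 probe sets, 21640 had 1 gene, 1321 had several and 11799 had no gene entry, and symbols were matched by Entrez identifier to the RefSeq table of GRCm38.p6 for 99.6%.

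Each gene was taken from its single-gene probe set with the highest mean. Genes reaching a log2 value of 5 on at least 3 arrays were tested in limma 3.58.1 (R 4.3.3, lmFit and eBayes) with 6 group means and sex, all 21 arrays sharing 1 spread (14 residual degrees of freedom), and adjusted by Benjamini-Hochberg over 11384 genes. The fit was also run on simulated data with independent noise of equal spread in all groups. It does not cover the wider spread of the MerCreMer 4 tamoxifen arrays. The genes named are the 31 measured list members, and in the other lists up to 4 with the smallest adjusted p. Members and lists were chosen with earlier results of these data known. Alternatives varied the covariate, arrays, weights, filter, scaling and probe set rule. The number of arrays limits the precision.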

Additional observations from a re-analysis of the deposited data

Results flagged for a closer look

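Angptl4 read 6.30 log2 units on replicate 2 of the wild-type 4 control group, farther from its 5 companions, at 4.87 to 5.26, than Dixon's limit allows. Chance marks about 1 in 20 groups, and this was the only such array among the 31 genes in that group, the 1 group large enough for the rule. The same array, from a male, had Pdk4 at 10.87 and Ucp3 at 8.42.

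The effect of 4 tamoxifen injections differed between genotypes for Cd36, by -0.78 (limma adjusted p = 0.0228, lower in 3 of 3 MerCreMer arrays), and for Lpl, by -0.46 (limma adjusted p = 0.0468, lower in 3 of 3). Neither passed with only the arrays compared or with the replicate block, and with a spread per group Cd36 passed and Lpl did not. The effect in MerCreMer mice differed between 4 and 1 injections for Lpl, by -0.56 (limma adjusted p = 0.0308, lower in 3 of 3), and this call too was lost with only the arrays compared, with the block and with a spread per group. It was the 1 call among the 31 genes, close to the 3% of all tested genes lower by this test.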

How the results depend on the processing

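With all arrays, 13 of 31 genes were lower and 1 was higher in MerCreMer mice after 4 tamoxifen injections. The lower count was 0 with only the arrays compared, 7 with array weights, 4 with a spread per group, 8 with no filter, 21 with median centring, 4 with the replicate block and 1 within the larger side of the unnamed probe sets. The higher count was 0 with only the arrays compared, with a spread per group and within the larger side. Leaving out 1 array gave 3 to 26 lower genes, with 654 to 1721 of all 11384 tested genes lower. No change of a gene past the threshold reversed its sign under any alternative.

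The median change after 1 injection was -0.41 within the larger side, and -0.13 to 0.011 without single arrays. The sex term enters the first value, since the only male arrays on that side were tamoxifen arrays. Between MerCreMer and wild-type controls the higher count of 0 became 1 with only the arrays compared, with array weights, with a spread per group and without the 3 MerCreMer 4 tamoxifen arrays, and was 0 to 1 without single arrays. Between the MerCreMer controls of 4 and 1 injections the median was -0.107 to 0.0315 without single arrays.

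For the difference between genotypes the lower count of 2 became 1 without the sex term, in female arrays, with no filter and with the probe set side as a term, 0 with only the arrays compared and with the replicate block, and 4 with array weights. Without single arrays it was 0 to 23, with 253 to 924 of all 11384 tested genes lower, and the higher count was 0 to 1. With a spread per group the count stayed 2 but the genes were Cd36 and Hadhb. For the difference between 4 and 1 injections the lower count of 1 became 0 in female arrays, with only the arrays compared, with no filter, with the replicate block and within the larger side, and 2 with array weights, an intensity trend, a stricter filter or median centring. With a spread per group the gene was Cd36 in place of Lpl. The higher count became 1 with the stricter filter and with median centring. Without single arrays these counts were 0 to 9 and 0 to 1, with 198 to 859 of all 11384 tested genes lower. Between the sexes the higher count of 0 became 2 with array weights.

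The replicate numbers were not taken as pairing, since in each of the 5 pairs of groups at least 1 same-numbered pair of arrays had deviations that correlated below 0.1. In the 4 injection MerCreMer groups the same-numbered values were 0.112, -0.037 and 0.054. In the 1 injection groups they were 0.277, 0.07 and 0.249, and there every array correlated best with its own number, a hint from the data and not from the design. With the replicate block 1019 genes were higher and 636 lower in all, against 1583 and 1071 without it. Over all genes the counts were 5 and 13 with only the arrays compared, 906 and 584 with array weights, 362 and 275 with a spread per group, 710 and 792 in female arrays, and 384 and 271 within the larger side. Between genotypes at control injections they were 62 and 15, but 696 and 374 with array weights, 429 and 188 with a spread per group, 488 and 199 without the 3 MerCreMer 4 tamoxifen arrays, and 1 and 0 with the block. For the difference between genotypes they were 507 and 402, 8 and 19 with the block and 198 and 202 with a spread per group, and for that between injections 316 and 342, 37 and 76 with only the arrays compared and 90 and 142 with the block. The probe set side, the controls of both injection days, the reading of the sex term as a comparison and the omission of the 3 arrays were chosen as alternatives after the data were seen. The cause of these movements was not tested.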
